A study of Rattus norvegicus with 48 samples.

Results

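The 8 genes described here encode proteins of the kinin, angiotensin, apelin, adrenomedullin and angiopoietin systems: the bradykinin receptor gene Bdkrb2, the angiotensin-converting enzyme gene Ace, Agtrap, Apln, Aplnr, Adm, Calcrl and Angpt2. They were picked by name out of 32624 features in the count files, and partly on measured values, since the choice rested on a peak of Bdkrb2 at day 2 of fasting and a fall of Apln at day 3. Both of those patterns are therefore given as descriptions, and no test of them is read as a result. Counts of calls under different processing, given at the end, include them. Each gene was matched to a single Ensembl identifier, and all 8 were among the 13050 features with at least 1 read in each sample, which were the features tested.

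RNA was sequenced from cerebral endothelial cells (CECs) of male Wistar-Han rats, either fed ad libitum (AL rats) or deprived of food for 1, 2 or 3 days with free access to water (F1, F2 and F3 rats). The cells were taken from the cortex of perfused animals, with 4 rats per isolation and tissue of 2 cortices pooled for digestion, depleted of CD11b-positive cells and sorted for CD31. Each group had 3 samples, named i, j and k, and each sample was the sum of 4 technical replicates. Reads assigned to genes ranged from 20718644 to 25960874 per sample.

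Vasoactive peptides act on endothelial cells through receptors that couple mostly to G proteins, and so set vessel tone, permeability and growth. Bradykinin opens endothelial junctions and releases nitric oxide through its B2 receptor, and the angiotensin-converting enzyme both degrades bradykinin and makes angiotensin II. Apelin and adrenomedullin are peptides that endothelial cells secrete and also sense, while angiopoietin-2 modulates signalling of the Tie receptors. Brain endothelial cells are known for a high level of angiotensin-converting enzyme on their surface.

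The sorted material carried the markers of endothelium. Of 14 endothelial markers, 8 had an identifier, and their summed level lay between 472364 and 505427 normalized counts (counts scaled to a common library size) in every sample. Pecam1, which encodes CD31, ranged from 31655 to 38792. Single endothelial markers nevertheless changed. Bcl6b, a transcriptional repressor, fell in F1 rats (LFC -0.69, SE 0.12, adjusted p = 0.00414) and in F3 rats (LFC -0.84, SE 0.12, adjusted p = 0.000526), while between fasting days it rose from day 1 to day 2 (LFC 0.54) and fell from day 2 to day 3 (LFC -0.69). Adgrl4, an adhesion receptor, rose in F1 (LFC 0.39) and F3 rats (LFC 0.49) and from F2 to F3 rats (LFC 0.38), and Acvrl1, a receptor of the bone morphogenetic protein family, fell in F3 rats (LFC -0.26, adjusted p = 0.0263). Other cell types were present at lower and less even levels. The 3 pericyte markers with an identifier of 9 listed (Abcc9, Anpep, Atp13a5) summed to between 2556 and 6301 normalized counts in the AL samples, 2801 and 3134 in F1 rats, 3396 and 6636 in F2 rats and 2268 and 6184 in F3 rats. The 6 microglial markers with an identifier of 9 never summed to more than 133.6, and the 2 neuronal ones of 6 never to more than 23.9. No marker of pericytes, smooth muscle, microglia, astrocytes, neurons, oligodendrocytes, fibroblasts or red blood cells with an identifier passed the test in any of the 5 comparisons. Of 3 immediate early genes with an identifier, which respond to cell handling, Atf3 alone changed, with a fall in F3 rats (LFC -1.18, SE 0.35, adjusted p = 0.0462). In such bulk samples, fewer cells of a type and less RNA per cell cannot be told apart.

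Among the 8 genes, Calcrl was lower in F1 and F3 rats than in AL rats, and lower in F3 than in F2 rats. Agtrap was higher in F1 and F3 rats. Bdkrb2 stood highest in F2 rats and Apln lowest in F3 rats, the patterns on which the genes were selected. No change passed the test for Ace, Aplnr, Adm and Angpt2. In F1 rats 2 of the 8 genes passed the test (adjusted p of at most 0.05, quasi-likelihood test of edgeR, adjusted over all 13050 features by Benjamini-Hochberg), 1 in each direction, where 6.56% of all features did. The other comparisons were counted without Bdkrb2 or Apln where the choice of that gene rested on them. In F2 rats 0 of the other 7 genes passed (edgeR; 3 had an unadjusted p under 0.05, and DESeq2's Wald test called 0), against 0.858% of all features. In F3 rats Agtrap and Calcrl, 2 of the other 7, passed against 12% of all features. Between F2 and F1 rats 0 of the other 7 passed (edgeR; 4 had an unadjusted p under 0.05, and DESeq2 called 0), against 1.43%, and between F3 and F2 rats Calcrl alone of the other 6 passed, against 5.94%. In the joint test over the 4 groups, Agtrap and Calcrl passed among the other 6, against 10.1% of all features.

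**Figure D1:**
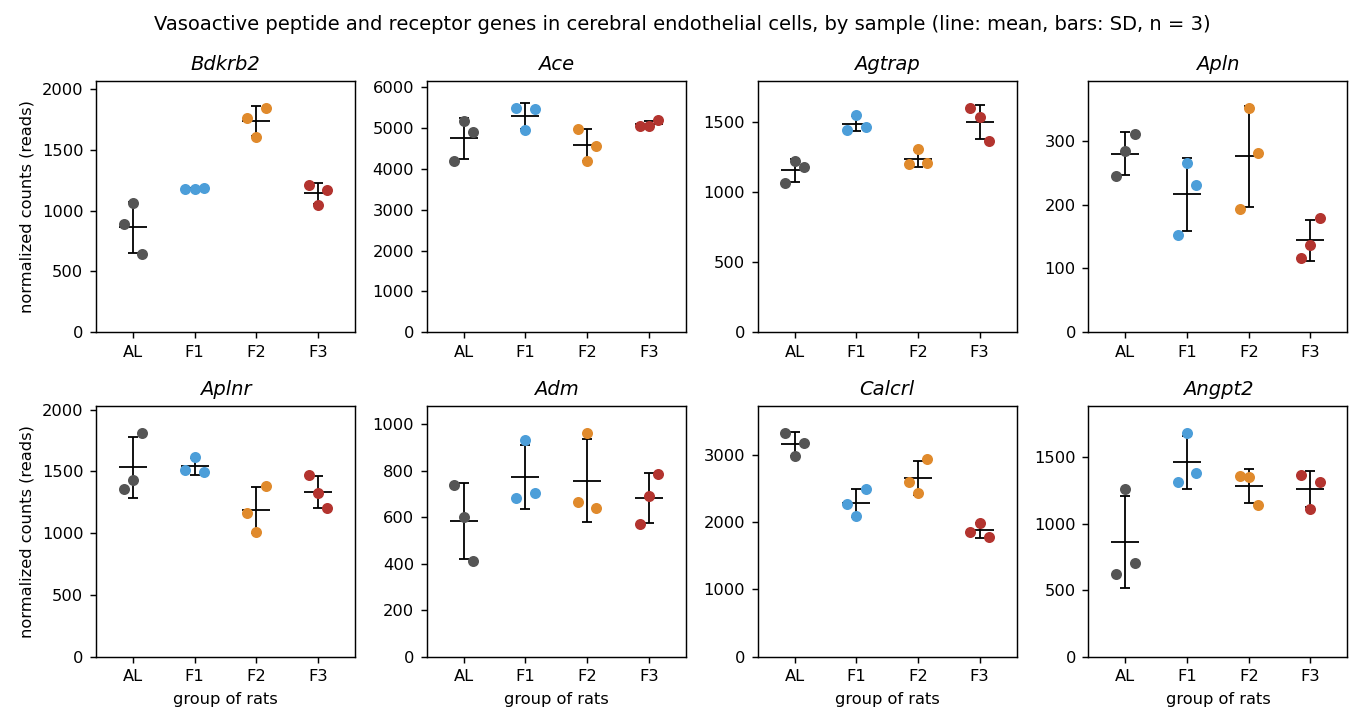
Normalized counts (vertical axes, in reads) of the 8 genes in each of the 12 samples, by group of rats (horizontal axes), with the group mean and SD over 3 samples. Calcrl in AL rats lay at 2978 or above and in F3 rats at 1987 or below, whereas the samples of Ace overlapped between AL rats and every fasted group.

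The kinin system is represented by the B2 receptor. Bdkrb2 was counted at 886, 1059 and 641 normalized counts in AL samples i, j and k, at 1175, 1182 and 1190 in F1 rats, at 1762, 1604 and 1845 in F2 rats and at 1210, 1045 and 1170 in F3 rats. Every F2 sample lay above every sample of the other 3 groups, and every F1 sample above every AL sample, while AL sample j overlapped with F3 rats. The mean was 862 ± 210 in AL rats and 1737 ± 123 in F2 rats (SD, n = 3), a log2 fold change (LFC) of 1.01, or 2.01-fold, given without a test. The order of the means was AL, F3, F1 and F2, and F1 and F3 rats differed by less than the SD of the F3 samples (1182 ± 7.49 against 1142 ± 86.0, SD, n = 3).

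On the days that the choice did not rest on, Bdkrb2 had an LFC of 0.45 (SE 0.14, adjusted p = 0.0659) in F1 rats and of 0.40 (SE 0.14, adjusted p = 0.0722) in F3 rats, neither of which passed the test. Leaving out AL sample j, the highest of its group, gave LFCs of 0.63 (adjusted p = 0.0102) and 0.58 (adjusted p = 0.00991). Without AL sample k, the lowest of its group, they were 0.28 (edgeR adjusted p = 0.136) and 0.24 (edgeR adjusted p = 0.162). Of 6 fits with 1 sample of the compared groups left out, 1 passed in F1 rats and 1 in F3 rats. Bdkrb1, the inducible kinin receptor, was the only other kinin gene of 10 listed with an identifier. It was barely detected, at 0.920 to 1.11 normalized counts in the AL samples and 4.01 to 7.93 in F2 rats, and passed no test (LFC 2.27, SE 0.61, adjusted p = 0.115 in F2 rats). Among 1146 other genes with a symbol and a mean of at least 100 normalized counts, those whose log2 level followed Bdkrb2 most closely over the 12 samples were Arf1 (Pearson r = 0.847), Ackr3 (r = 0.837) and Auh (r = 0.835). These symbols come mostly from the start of the alphabet, and the 12 samples share their groups and depth, so the values are a description.

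Turning to the renin-angiotensin system, Ace, the enzyme that makes angiotensin II, varied little. Its level was 4189.5, 5171 and 4906 normalized counts in the AL samples, 5499, 4946 and 5468 in F1 rats, 4992, 4208 and 4554 in F2 rats and 5059, 5065 and 5202 in F3 rats. Each fasted group overlapped with AL rats. The only groups of Ace without overlap were F3 and F2, with an LFC of 0.16 (SE 0.09, adjusted p = 0.323). Against AL rats the LFCs were 0.16 (SE 0.09, adjusted p = 0.348) at day 1, -0.05 (SE 0.09, adjusted p = 0.849) at day 2 and 0.10 (SE 0.09, adjusted p = 0.519) at day 3.

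Agtrap encodes a protein that binds the angiotensin type 1 receptor and promotes its internalization. Its samples stood at 1061, 1220 and 1180.0 normalized counts in the AL samples, 1443, 1548 and 1465 in F1 rats, 1197, 1308 and 1203 in F2 rats and 1597, 1535 and 1358 in F3 rats. All F1 and all F3 samples were above all AL and all F2 samples, whereas F2 and AL rats overlapped. Agtrap thus rose by an LFC of 0.36 (SE 0.08, adjusted p = 0.0159, edgeR), or 1.29-fold, in F1 rats and of 0.38 (SE 0.08, adjusted p = 0.00756) in F3 rats. The LFC of 0.10 in F2 rats did not pass the test (SE 0.08, adjusted p = 0.650).

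The lower level of Agtrap at day 2 was not past the threshold as a difference between days: the LFC was -0.27 between F2 and F1 rats (SE 0.08, adjusted p = 0.108) and 0.28 between F3 and F2 rats (SE 0.08, adjusted p = 0.0558). The latter did pass with DESeq2 (adjusted p = 0.0231), among features with at least 10 reads in each sample (0.0444), and without AL sample i (0.0462), F2 sample j (0.0389) or F3 sample k (0.0419). In F1 rats the call was lost when AL sample i (LFC 0.31, adjusted p = 0.0719) or F1 sample j (LFC 0.33, adjusted p = 0.0795) was left out. The call in F3 rats held in all 16 alternatives computed for it. Outside the naming rule and after its values had been seen, Angptl4 is mentioned because its log2 level had the highest correlation with that of Agtrap (r = 0.969 over 12 samples). This rank holds among 1146 other genes with a symbol, mostly from the start of the alphabet, and a mean of at least 100 normalized counts. Atg12 (r = 0.954) and Bet1l (r = 0.937), also outside the rule, came next. Their group means too were higher in F1 and F3 rats than in AL and F2 rats. Angptl4 encodes a secreted inhibitor of lipoprotein lipase, and its group means were 10768, 15108, 11972 and 16144 normalized counts in AL, F1, F2 and F3 rats, so that it too stood higher at days 1 and 3.

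Of the other renin-angiotensin genes listed, 3 of 12 had an identifier, and none passed the test. Atp6ap2, the prorenin receptor, ranged from 1794 to 2108 normalized counts over all samples. Anpep, an aminopeptidase that trims angiotensin peptides, had its highest values in AL sample i, F2 samples i and k and F3 sample i, at 601, 577, 529 and 538 normalized counts. These are also the 4 samples with the highest summed pericyte markers, at 6301, 5898, 6636 and 6184, of which Anpep itself is 1. Its LFC ranged from -0.65 (SE 0.35, adjusted p = 0.322) in F1 rats to 0.32 (SE 0.34, adjusted p = 0.737) in F2 rats. The part of pericytes in these values was not tested.

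**Figure D2:**
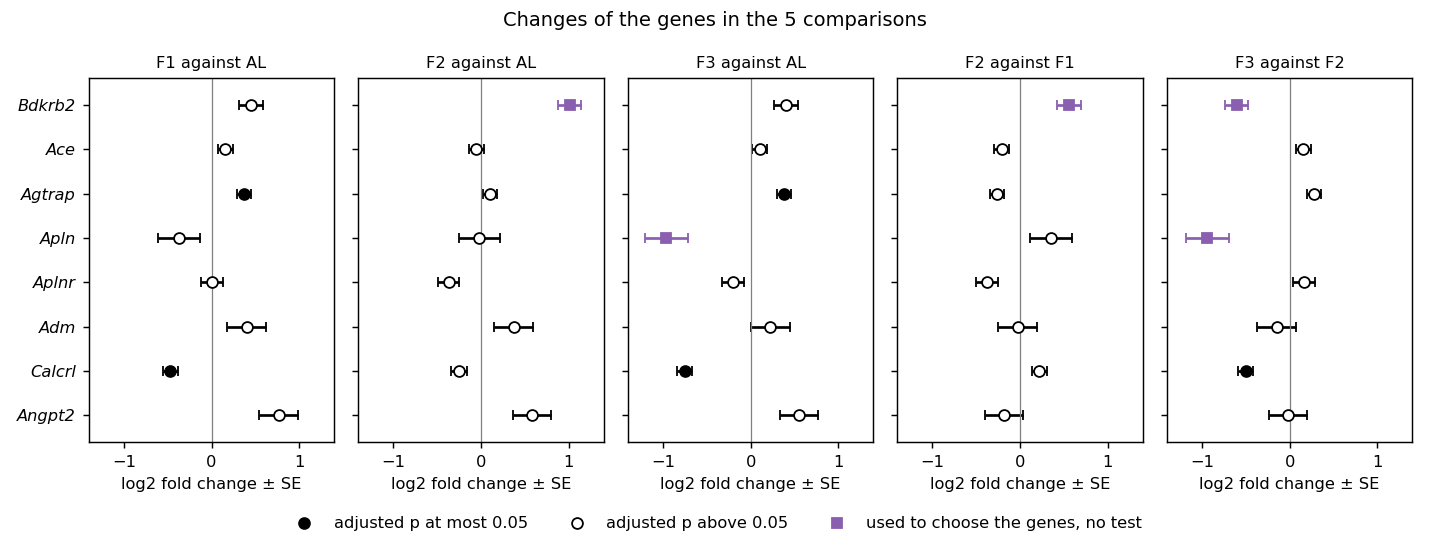
Log2 fold change of each gene in the 5 comparisons (horizontal axes), with bars for the standard error, filled circles for adjusted p of at most 0.05 and squares for the comparisons used to choose the genes. Calcrl is filled and negative in 3 comparisons, Agtrap is filled and positive at days 1 and 3, and Angpt2 lies right of 0 on all 3 days with open circles.

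In the apelin system, both the ligand and its receptor were measured. Apln, the ligand and a marker of sprouting endothelial cells, was at 245, 284 and 311 normalized counts in the AL samples, 152, 265 and 231 in F1 rats, 194, 352 and 282 in F2 rats and 116, 136 and 180 in F3 rats. All F3 samples lay below all AL and all F2 samples, while F3 sample k (180) lay above F1 sample i (152). The mean fell from 279.9 ± 33.3 in AL rats to 144 ± 32.6 in F3 rats (SD, n = 3), or 0.515-fold (LFC -0.96), and the LFC between F3 and F2 rats was -0.94. These are the values the gene was chosen by, and no test of them is read as a result.

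Before day 3, Apln had an LFC of -0.37 (SE 0.24, adjusted p = 0.424) in F1 rats and of -0.02 (SE 0.24, adjusted p = 0.984) in F2 rats. With standard errors of 0.24, the 3 samples per group left the level of Apln less well determined than that of Calcrl or Agtrap (0.09 and 0.08). The genes nearest to Apln over the 12 samples were Bcl10 (r = 0.907), Selenof (r = 0.895) and Anxa5 (r = 0.874), which again is a description.

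Aplnr, the receptor of apelin, was at 1354.5, 1434.5 and 1814 normalized counts in the AL samples, 1515, 1616 and 1492 in F1 rats, 1163, 1012.5 and 1383 in F2 rats and 1468, 1323 and 1206 in F3 rats. F2 samples i and j were the lowest of the 12, and F2 sample k overlapped with AL rats. Its LFC was 0.01 (SE 0.12, adjusted p = 0.983) in F1 rats, -0.37 (SE 0.12, adjusted p = 0.210) in F2 rats and -0.20 (SE 0.12, adjusted p = 0.342) in F3 rats. Every F2 sample was below every F1 sample, with an LFC of -0.38 that did not pass the test (SE 0.12, adjusted p = 0.138). Apela, the other ligand of this receptor, had no identifier here.

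In the adrenomedullin system the receptor changed and the ligand did not pass the test. Adm, which encodes the vasodilator peptide, was at 739, 603 and 410.0 normalized counts in the AL samples, 683, 931 and 703 in F1 rats, 667, 964 and 642 in F2 rats and 572, 693 and 787 in F3 rats. All 3 fasted groups overlapped with AL rats. The means were 584 ± 165, 772 ± 138, 757 ± 179 and 684 ± 108 (SD, n = 3), and the LFCs of 0.40, 0.37 and 0.22 against AL rats had a standard error of 0.22 each (adjusted p = 0.349, 0.523 and 0.592).

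Calcrl encodes the receptor that responds to adrenomedullin or to calcitonin gene-related peptide, depending on the accessory protein it pairs with. It was at 3328, 2978 and 3170 normalized counts in the AL samples, 2267, 2088 and 2492 in F1 rats, 2595, 2432 and 2936 in F2 rats and 1858, 1987 and 1779 in F3 rats. All AL samples lay above all fasted samples, all F3 samples lay below all others, and only F1 and F2 rats overlapped. The level fell in F1 rats (LFC -0.47, SE 0.09, adjusted p = 0.00684, edgeR), to 0.723 of that in AL rats, and in F3 rats (LFC -0.75, SE 0.09, adjusted p = 0.000179), to 0.593. In F2 rats the LFC was -0.25 and did not pass the test (SE 0.09, adjusted p = 0.230).

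Calcrl also fell between F2 and F3 rats (LFC -0.50, SE 0.09, adjusted p = 0.00757), whereas the difference between F2 and F1 rats did not pass (LFC 0.22, SE 0.09, adjusted p = 0.218). Its 3 calls held in each of the 16 alternatives computed for them, with adjusted p up to 0.0463 in F1 rats, 0.00202 in F3 rats and 0.0444 between F3 and F2 rats. Slc38a5, the only venous endothelial marker of 4 with an identifier, was also lower in F1 and F3 rats. It ranged from 2708 to 3831 normalized counts in the AL samples, 2140 to 2664 in F1 rats, 2732 to 3012 in F2 rats and 2194 to 2545 in F3 rats, with LFCs of -0.48 (SE 0.12, adjusted p = 0.0281) in F1 and -0.48 (SE 0.12, adjusted p = 0.0182) in F3 rats. Unlike Calcrl, it did not pass the test between F3 and F2 rats (LFC -0.305, SE 0.12, adjusted p = 0.146). The arterial markers with an identifier (Alpl and Bmx, 2 of 5) passed no test and summed to between 7121 and 10883 over all samples. The endothelial marker Bcl6b also fell in F1 and F3 rats and between F2 and F3 rats. The part of vessel type or of a wider endothelial change in the fall of Calcrl was not tested.

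The accessory proteins of Calcrl had no identifier here. Ackr3, a scavenger receptor that binds adrenomedullin as well as a chemokine, was the only other gene of this system with an identifier of 9 listed. It rose in F2 rats (LFC 0.61, SE 0.12, adjusted p = 0.0356) and in F3 rats (LFC 0.50, SE 0.12, adjusted p = 0.0156), from 3994, 3847 and 2960 normalized counts in the AL samples to 5949, 5230.0 and 5352 in F2 rats and 5686, 4952 and 4684 in F3 rats. F1 rats, at 5356, 4350 and 4258, also lay above all AL samples with an LFC of 0.37 that did not pass the test (SE 0.12, adjusted p = 0.0914). The rise in F2 rats was lost without AL sample k (LFC 0.49, adjusted p = 0.153), without any of the F2 samples (adjusted p = 0.135, 0.0556 and 0.0622 without i, j and k), and in a fit of AL and F2 rats only (adjusted p = 0.166). It was also lost without F1 sample j, F3 sample j or F3 sample k, which are outside the comparison (0.0524, 0.0523 and 0.0554). The LFC stayed at 0.61 in these 3 fits. The rise in F3 rats was lost without AL sample k (adjusted p = 0.0613) or F3 sample i (adjusted p = 0.0835).

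Sequences upstream of the start of the gene were at hand for 5 of the 8 genes (Adm, Calcrl, Agtrap, Ace and Apln), from RefSeq on build GRCr8. The 250 bases before the start are shown for Calcrl and Agtrap, which moved in opposite directions at days 1 and 3, and for Apln, which was lowest at day 3. They are written 5′ to 3′ on the strand of the gene, with letters that match a searched motif in capitals.
Calcrl: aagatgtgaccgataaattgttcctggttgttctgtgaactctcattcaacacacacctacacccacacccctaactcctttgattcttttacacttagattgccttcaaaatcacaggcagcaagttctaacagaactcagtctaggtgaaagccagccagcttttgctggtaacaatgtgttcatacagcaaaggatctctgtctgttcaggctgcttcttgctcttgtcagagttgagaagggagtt
Agtrap: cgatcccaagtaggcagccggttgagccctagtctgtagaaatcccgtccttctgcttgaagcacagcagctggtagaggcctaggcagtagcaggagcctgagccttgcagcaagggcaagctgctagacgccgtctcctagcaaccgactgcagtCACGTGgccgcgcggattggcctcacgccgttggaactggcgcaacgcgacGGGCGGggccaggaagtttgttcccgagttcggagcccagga
Apln: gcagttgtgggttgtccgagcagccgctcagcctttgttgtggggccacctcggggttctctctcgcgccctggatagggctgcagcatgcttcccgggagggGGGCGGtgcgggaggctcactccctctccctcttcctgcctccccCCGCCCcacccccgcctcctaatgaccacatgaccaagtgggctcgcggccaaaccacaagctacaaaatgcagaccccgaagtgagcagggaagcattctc
These lie at chr3:89932617-89932866, chr5:163802175-163802424 and chrX:132091247-132091496, all on the minus strand. The motifs were searched on both strands: the GC box GGGCGG, the E box CACGTG, the core of the hypoxia response element ACGTG (which overlaps the E box), the FOXO motif TGTTTAC, the TATA box TATAAA, and the half-site AGGTCA of nuclear receptors such as the PPARs, alone and repeated after 1 base.

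The 3 stretches differed in composition: G and C made up 43.6% of the bases for Calcrl, 62.4% for Agtrap and 64.8% for Apln, against a median of 51.2% over 33469 promoters. No searched motif was found in the stretch of Calcrl. That of Agtrap held a GC box starting 42 bases before the start of the gene and an E box starting 93 bases before it, and that of Apln held 2 GC boxes, 102 and 147 bases before it. Of all promoters, 30.5% held the GC box, 5.59% the E box, 16.6% the hypoxia core, 12.9% the TATA box, 3.21% the FOXO motif, 14.1% the AGGTCA half-site and 0.0508% its repeat. Among the 5 genes, 4 held a GC box (Adm, Agtrap, Ace and Apln), and only Agtrap held an E box. The hypoxia core was found only in Agtrap, within the letters of that E box. Only Ace held a TATA box, and none held the FOXO motif or the half-site. A match is a description of letters in this window and not evidence of a bound factor.

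Angpt2 encodes angiopoietin-2, which endothelial cells store and release and which modulates the Tie2 receptor (Tek). Its samples were at 621, 1259 and 702 normalized counts in the AL samples, 1315, 1686 and 1384 in F1 rats, 1361, 1351 and 1141 in F2 rats and 1365, 1110 and 1318 in F3 rats. AL samples i and k were the lowest of all 12, and AL sample j lay above F2 sample k and F3 sample j, so that only F1 rats were wholly above AL rats. Angpt2 had LFCs of 0.76 (SE 0.22, adjusted p = 0.0614) in F1 and 0.58 (SE 0.22, adjusted p = 0.291) in F2 rats. In F3 rats the LFC was 0.55 (SE 0.22, adjusted p = 0.131). None of these passed the main test (edgeR, all 12 samples).

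The outcome for Angpt2 turned on AL sample j, and in F1 rats also on the test, the filter and the estimate of the spread. Without it the LFCs of Angpt2 were 1.14 (adjusted p = 0.000698), 0.96 (adjusted p = 0.00474) and 0.94 (adjusted p = 0.000891) at days 1, 2 and 3. Without AL sample i, the lowest of its group, they were 0.58, 0.39 and 0.38 (edgeR adjusted p = 0.173, 0.448 and 0.329). In F1 rats Angpt2 was also called by DESeq2's Wald test (adjusted p = 0.00536), among features with at least 10 reads in each sample (adjusted p = 0.0403), and without the robust estimate of the spread (adjusted p = 0.0443). AL sample j had 23809336 assigned reads, summed pericyte markers of 3690 (6301 and 2556 in AL samples i and k), and the highest level of the red blood cell marker Alas2 among the 12 samples, at 110.3 (next 87.2, in F1 sample k). Bpgm, the other red blood cell marker with an identifier, did not stand out there, at 879 against 896 and 867 in AL samples i and k. The part of depth, pericytes or red blood cells in the values of Angpt2 was not tested. Angpt1, the ligand that activates the same receptor and is made mostly by other cells, was at most at 18.6 normalized counts in any sample. Aggf1, an angiogenic factor, had LFCs between -0.22 and 0.15 against AL rats and passed no test, and Angptl1 stayed at or below 13.0 normalized counts.

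**Figure D3:**
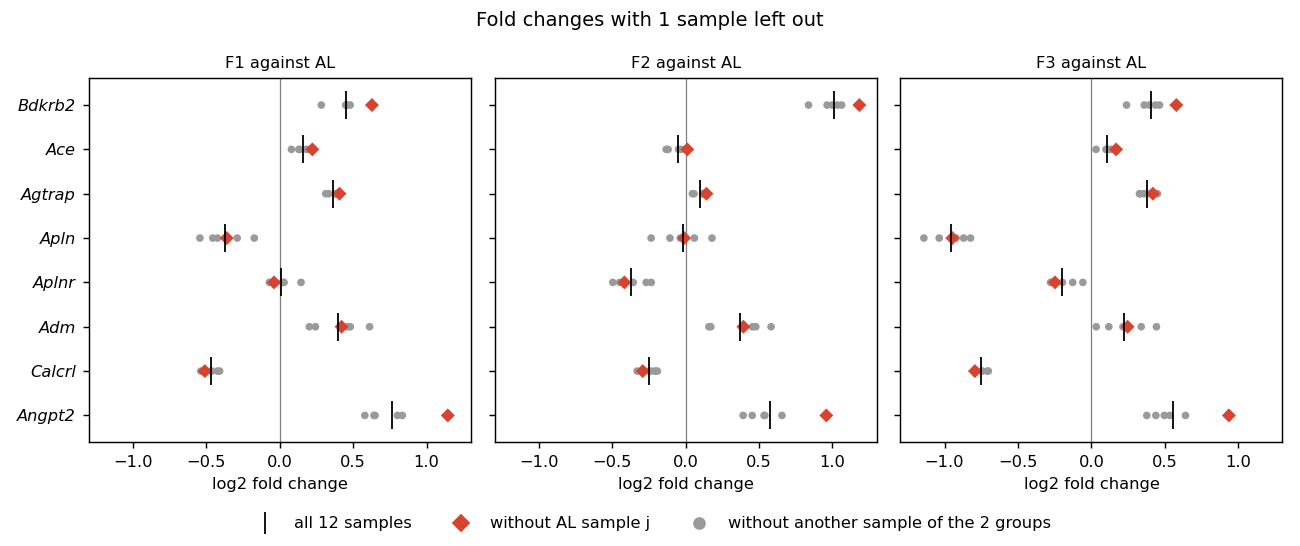
Log2 fold change against AL rats (horizontal axes) with all 12 samples (bars) and with each sample of the 2 groups compared left out (circles, and diamonds for AL sample j). The diamonds of Angpt2 and Bdkrb2 stand right of every other value of those genes, at 1.14 and 0.63 in F1 rats, while the values of Calcrl in F3 rats stay between -0.80 and -0.70.

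Sample overlap was also counted. Of the 8 genes, 4 had no overlap between F1 and AL rats (Bdkrb2, Agtrap and Angpt2 higher, Calcrl lower), where 28.7% of all features had none. Leaving out again the gene or genes chosen on the comparison, the same held for 1 of 7 between F2 and AL rats (Calcrl lower), against 15.5% of all features, and for 2 of 7 between F3 and AL rats (Agtrap higher, Calcrl lower), against 35.6%. Between fasting days it held for 2 of 7 from day 1 to day 2 (Agtrap and Aplnr lower), against 21.8%, and for 3 of 6 from day 2 to day 3 (Ace and Agtrap higher, Calcrl lower), against 26.8%. The comparisons against AL rats share the AL samples. The median LFC of the 8 genes against AL rats was 0.26 in F1, 0.04 in F2 and 0.16 in F3 rats. It was -0.11 between F2 and F1 rats and -0.09 between F3 and F2 rats. Except for F1 against AL rats, these medians include values the choice rested on. That of all features was within 0.01 of 0 in each comparison.

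Beyond the 8 genes, 83 others were listed for the vasoactive systems, and 22 of them had an identifier, all of which were tested. In F1 rats 0 of the 22 rose and 1 fell, in F2 rats 1 rose and 0 fell, and in F3 rats 1 rose and 2 fell, beside calls for 6.56%, 0.858% and 12% of all features. Cav1, the main protein of caveolae and a brake on endothelial nitric oxide synthase, was at 13637, 14810 and 15807 normalized counts in the AL samples, 10270 to 12056 in F1 rats, 11224 to 12418 in F2 rats and 8591, 10217 and 8555 in F3 rats, with all fasted samples below all AL samples. It fell in F1 rats (LFC -0.40, SE 0.09, adjusted p = 0.0231), in F3 rats (LFC -0.69, SE 0.09, adjusted p = 0.000396) and between F2 and F3 rats (LFC -0.37, SE 0.09, adjusted p = 0.0360). Its value in F2 rats was an LFC of -0.33 (SE 0.09, adjusted p = 0.143).

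Adcy4, an endothelial adenylate cyclase, the enzyme that makes cyclic AMP downstream of Calcrl and other receptors, fell in F3 rats (LFC -0.31, SE 0.08, adjusted p = 0.0172). Its samples there were at 2895, 3176 and 2839 normalized counts, against 3583, 3723 and 3745 in AL rats, without overlap. Adcy6, of the same family, had an LFC of 0.14 in F3 rats (SE 0.07, adjusted p = 0.248). The call of Cav1 in F3 rats held in all 16 alternatives. That in F1 rats was lost without AL sample k, F1 sample i or F1 sample j (adjusted p = 0.0852, 0.0951 and 0.0832), and that between F2 and F3 rats without F2 sample j or k or F3 sample i or k (adjusted p from 0.0639 to 0.157) in a fit of those 2 groups only (0.0922), and without F1 sample j (0.0548). The call of Adcy4 was lost without AL sample k, F3 sample i or F3 sample k (adjusted p = 0.0605, 0.0793 and 0.0833).

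Among the receptors, Adora2a, the adenosine receptor that couples to cyclic AMP, had LFCs between -0.05 and 0.01 against AL rats, each with a standard error of 0.13, and passed no test. The arrestins that uncouple receptors from G proteins, Arrb1 and Arrb2, had LFCs of -0.34 (SE 0.17, adjusted p = 0.226) and -0.28 (SE 0.16, adjusted p = 0.300) in F3 rats. Calm3, a calmodulin gene, varied from 19878 to 23236 normalized counts over all samples. Calm2 was listed under 2 identifiers and is not described. Avp, Adora2b, Adra2a, Adra2b and Arg2 had means under 100 normalized counts and passed no test. No gene of the endothelin list had an identifier.

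**Figure D4:**
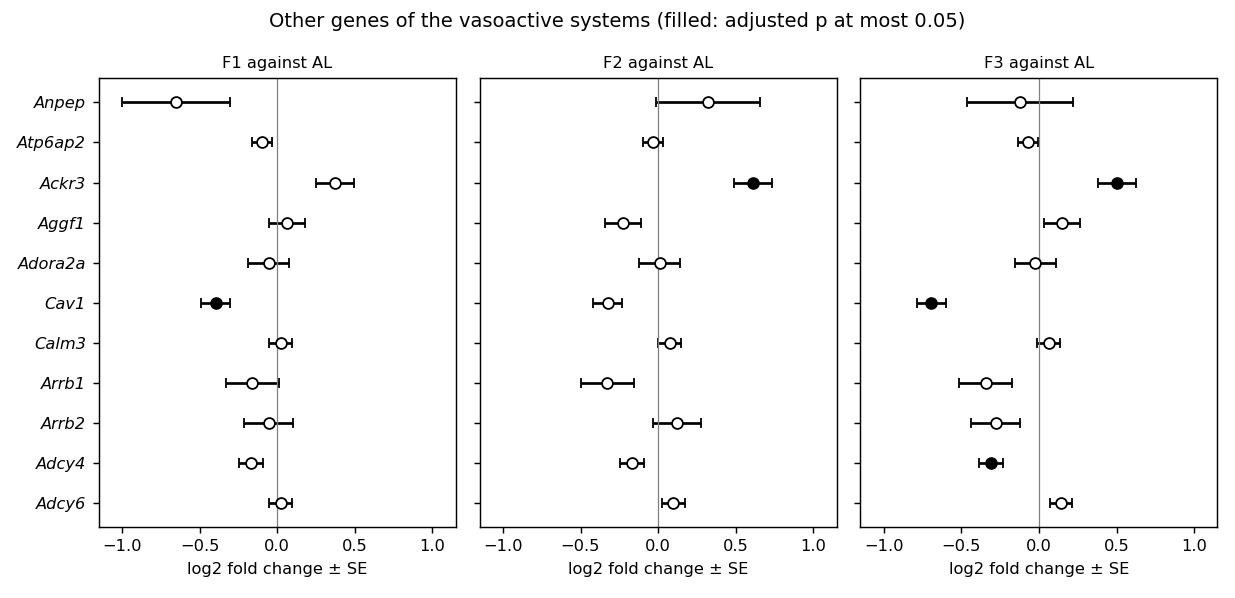
Log2 fold change against AL rats with its standard error for 11 other genes of the vasoactive systems with a mean of at least 100 normalized counts (horizontal axes), filled where the adjusted p is at most 0.05. Ackr3 is filled right of 0 at days 2 and 3, Cav1 is filled left of 0 at days 1 and 3, and Adcy4 is filled left of 0 at day 3.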

How the data were processed

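The authors aligned single-end reads of stranded polyadenylated RNA libraries with STAR to the rat genome (Rnor_6.0), discarded multi-mapped reads, and assigned the rest to exons with HTSeq 0.5.3. The deposited values are raw counts. The strand setting of the counting is not given in the sources used here, so overlapping genes on opposite strands cannot be separated.

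The 48 count files were summed to 12 samples. Technical replicate d of F1 sample k carries conflicting labels: its title gives F1 and its treatment label the fast of F2 rats. It holds 5892645 assigned reads, was kept by its title, and was left out in an alternative. Leaving it out changed none of the counts of the genes described here that passed the threshold. Total counts and the precision they give are stated with the results; samples of a group came from separate isolations of pooled rats, per the study's methods, so that p-values rest on the spread between 3 such isolations per group. Features with at least 1 read in each sample were tested in R 4.3.3 with edgeR 4.0.16 (TMM, quasi-likelihood test, robust spread, 4 group means, Benjamini-Hochberg over all 13050 features, threshold 0.05). To obtain normalized counts, each count was divided by the effective (TMM) library size and brought back to the mean library size.

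Symbols came from supplementary tables that are shortened here and gave one for 2043 of the 13050 features. Named genes are the 8, listed genes that were called in any comparison or averaged 100 normalized counts or more, and for Bdkrb2 and Apln the 3 genes with the highest correlation of log2 CPM (prior count 2). A few listed genes are counted but not described. Members and lists were chosen with earlier results of these data known. The alternatives tried were scaling by total counts, by upper quartile or by the size factors of DESeq2, the test of DESeq2 1.42.0, no filter, at least 10 reads, 6 samples only, a replicate block, each sample left out and a threshold of 0.01. Added after seeing the data was a fit without robust moderation.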

Additional observations from a re-analysis of the deposited data

Results flagged for a closer look

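Calcrl in F3 rats was flagged because fasting for 3 days lowered it further than fasting for 2 days, by a test of the difference between these groups (LFC -0.50 between F3 and F2 rats, edgeR adjusted p = 0.00757). Cav1 was flagged for the same reason (LFC -0.37, edgeR adjusted p = 0.0360), although without F2 sample j or k or F3 sample i or k its adjusted p was between 0.0639 and 0.157. The groups of 3 samples are too small for a search for outlying samples.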

How the results depend on the processing

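The number of the 8 genes past the threshold was 2, 1, 3, 0 and 3 for days 1, 2 and 3 against AL, day 2 against 1 and day 3 against 2, and 3 in the joint test. These counts include the comparisons that Bdkrb2 and Apln were chosen on (Bdkrb2 at day 2, Apln at day 3), and nothing is read from those. DESeq2's test gave 4 for F1 against AL (adding Bdkrb2 and Angpt2), 4 for F3 against AL (adding Bdkrb2), 4 for F3 against F2 (adding Agtrap), 1 for F2 against F1 and 5 in the joint test. For F2 against F1, the 1 gene under total counts, the upper quartile, no filter and the 6 samples alone was Bdkrb2, chosen on this comparison. In that last fit F2 against AL gave 0 of 8 (edgeR; 4 with an unadjusted p under 0.05; 1 by DESeq2) and 0 of all features. A threshold of 0.01 left 1 for F1 against AL and 1 for F3 against F2. With each sample left out the count ranged from 1 to 4 for F1 against AL (1 without AL sample i or F1 sample j, 4 without AL sample j), 1 to 2 for F2 against AL (2 without AL sample j, adding Angpt2), 2 to 4 for F3 against AL (4 without AL sample j; Apln absent without AL sample j or k or F3 sample i or j) and 1 to 3 for F3 against F2; only Calcrl was called between F3 and F2 rats without F2 sample k, F3 sample i or F3 sample j.

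Values near 0 changed sign without passing a test. These were Apln at day 2 (0.0067 with the upper quartile, -0.23 to 0.18 with a sample left out), Aplnr at day 1 (-0.0546 with total counts, -0.0701 to 0.15), Ace at day 2 (-0.13 to 0.0118), Adm from day 1 to 2 (0.0014 with total counts, -0.24 to 0.13) and from day 2 to 3 (-0.25 to 0.0639), and Angpt2 from day 2 to 3 (-0.10 to 0.0627). The cause was not tested.

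Whether the sample letters pair the samples was left undecided. Of 18 pairs with the same letter, 2 had a correlation of deviations over 0.1 (range -0.017 to 0.139). Pairs with different letters were not compared, so these values cannot decide it. A replicate block by letter gave 2, 1, 3, 0 and 3 of the 8 genes and 4 in the joint test, adding Apln, and moved the features called between F2 and F1 from 186 to 108. Over all features DESeq2 moved the calls from 112 to 359 for F2 against AL, 186 to 616 for F2 against F1, 775 to 1242 for F3 against F2 and 1321 to 2090 in the joint test, and the 6 samples alone gave 56 for F2 against F1 and 262 for F3 against F2. With any of the 12 samples left out, calls ranged from 308 to 1451 for F1, 35 to 162 for F2 and 792 to 2368 for F3 against AL, 0 to 217 for F2 against F1, 164 to 783 for F3 against F2 and 739 to 1784 jointly (edgeR); leaving out F2 sample j gave the highest count for F1 and F3 against AL and jointly, F1 sample j the lowest for F1 against AL and F2 against F1, F3 sample i the lowest for F3 against AL, F3 against F2 and jointly, and AL sample k the lowest for F2 against AL. Total counts turned the split of calls in F1 rats from 505 higher and 351 lower to 375 and 593, in F2 rats from 64 and 48 to 64 and 75, and in F3 rats from 819 and 753 to 664 and 955; the upper quartile gave 87 and 42 in F2 rats. The directions called for Calcrl, Agtrap, Ackr3, Cav1 and Adcy4 were the same in every alternative. With 3 samples per group, standard errors from 0.08 (Agtrap) to 0.24 (Apln) set what could be detected.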
